A study of Saccharomyces cerevisiae with 312 samples.

Results

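The OCA2, OCA5, OCA1 and OCA6 deletion queries are 4 of the 154 query mutations that were crossed into one barcoded collection of budding yeast mutants. Their members were chosen by array title alone and make up 8 of 312 arrays, with 2 screens for each query. Each query strain carried a full deletion of the named gene: OCA2 is YNL056W, OCA5 is YHL029C, OCA1 is YNL099C and OCA6 is YDR067C. The crossed haploid pools grew for 18 generations with G418 and nourseothricin, and the level of each strain's barcodes in the query population was compared with that in a reference population on a dual-colour array. The reference in all 8 arrays was a mix of many deletions crossed and grown in the same way, and not a wild type. The labels do not say that the screens of a query began from separate query clones or cultures, and the p-values may therefore reflect technical spread alone.

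The reference populations set the structure of the comparison. OCA2 and OCA5 shared 1 pool in their first screens and another in their second, and OCA1 and OCA6 shared 2 other pools in the same way. No pool was used by both sides. A difference between OCA2 and OCA5 on one side and OCA1 and OCA6 on the other therefore cannot be told apart from the pools, except through the other queries that used the same pools. Those pools held 9, 11, 12 and 8 arrays, of which 7, 9, 10 and 6 came from other queries.

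The OCA genes take their name from oxidant-induced cell-cycle arrest. Oca1, Oca2, Oca4, Oca6 and Siw14, also called Oca3, are related to one another and to protein tyrosine phosphatases. Siw14 is known to remove a phosphate from inositol pyrophosphates, which are small phosphate-rich signalling molecules linked to the phosphate response of yeast. In a screen of this kind, a strain that becomes rarer when the query gene is also deleted is said to interact negatively with it.

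All values below are log2 ratios of the query over the reference population, averaged over the features of a strain and centred on the median of the array, so a negative value means fewer cells in the query population. The log base is not stated in the sources used here and was taken as 2, and the direction was taken from linked strains, because a mutation close to the query can rarely be combined with it. Within 25 genes of the query their median was -3.30 and -2.76 in the OCA2 screens, -3.09 and -2.72 in the OCA5 screens, -2.72 and -2.70 in the OCA1 screens, and -3.01 and -3.40 in the OCA6 screens. All 8 arrays thus showed the loss of strains around the labelled locus and ran in the same direction. The strain altered in the query gene itself lay between -7.65 in the first OCA5 screen and -2.67 in the second OCA1 screen. Strains within 100 genes of the query were left out of what follows, which removes the OCA1, OCA2 and SIW14 strains from the OCA1 and OCA2 queries, because these 3 genes lie near one another on chromosome XIV. The arrays measured 3290 to 4123 strains. In each query the first screen was wider than the second: the SD over unlinked strains was 0.864 and 0.496 for OCA2, 0.996 and 0.569 for OCA5, 0.678 and 0.392 for OCA1, and 0.799 and 0.309 for OCA6.

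More strains were called lower with the OCA2 and OCA5 deletions than with OCA1 and OCA6, though this order did not hold under every setting, and fewer strains were higher than lower with each. A strain was called lower or higher where limma's moderated test, fitted over all 304 screens, gave a Benjamini-Hochberg adjusted p under 0.05 over 547925 strain and query pairs and a mean of at least 1 from 0. With the OCA2 deletion 142 strains were lower (3.72% of 3813 tested) and 6 were higher (0.157%). With OCA5, 224 were lower (5.8% of 3864) and 5 higher (0.129%). With OCA1, 50 were lower (1.31% of 3806) and 5 higher (0.131%), and with OCA6, 42 were lower (1.32% of 3190) and 18 higher (0.564%). Over all tested pairs of the series 2.37% were lower and 1.24% higher, so OCA2 and OCA5 stood above that level in lower calls and OCA1 and OCA6 below it. Under quantile normalization the calls divided as 81 lower and 54 higher for OCA2, 88 and 45 for OCA5, 76 and 30 for OCA1, and 66 and 30 for OCA6, so both the scarcity of higher calls and the gap between the queries depend on the scaling. By the number of strains lowered, OCA5 ranked 21, OCA2 33, OCA1 62 and OCA6 65 among the 140 queries with at least 2 screens. The median of these queries was 36 lower and 30 higher calls. OCA1 and OCA6 were thus above the median query in lower calls, and all 4 were below it in higher calls.

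The screens of a query did not weigh equally in these calls. Of the lower calls, both screens lay at -1 or below in 102 of 142 for OCA2 and 148 of 224 for OCA5, but in 18 of 50 for OCA1 and 5 of 42 for OCA6. The median of the called strains in the first and second screen was -3.04 and -1.29 for OCA2, -3.09 and -1.33 for OCA5, -1.93 and -0.97 for OCA1, and -2.18 and -0.26 for OCA6. Most OCA6 calls thus rest on its first screen. Without the first screen, the lower calls came to 22 for OCA2, 42 for OCA5, 24 for OCA1 and 9 for OCA6; without the second they came to 172, 243, 163 and 204 in the same order, when the remaining screen is assumed to vary like the screens of other queries. OCA1 then had more lower calls than OCA2 without the first screens, and OCA6 more than OCA2 without the second.

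**Figure D1:**
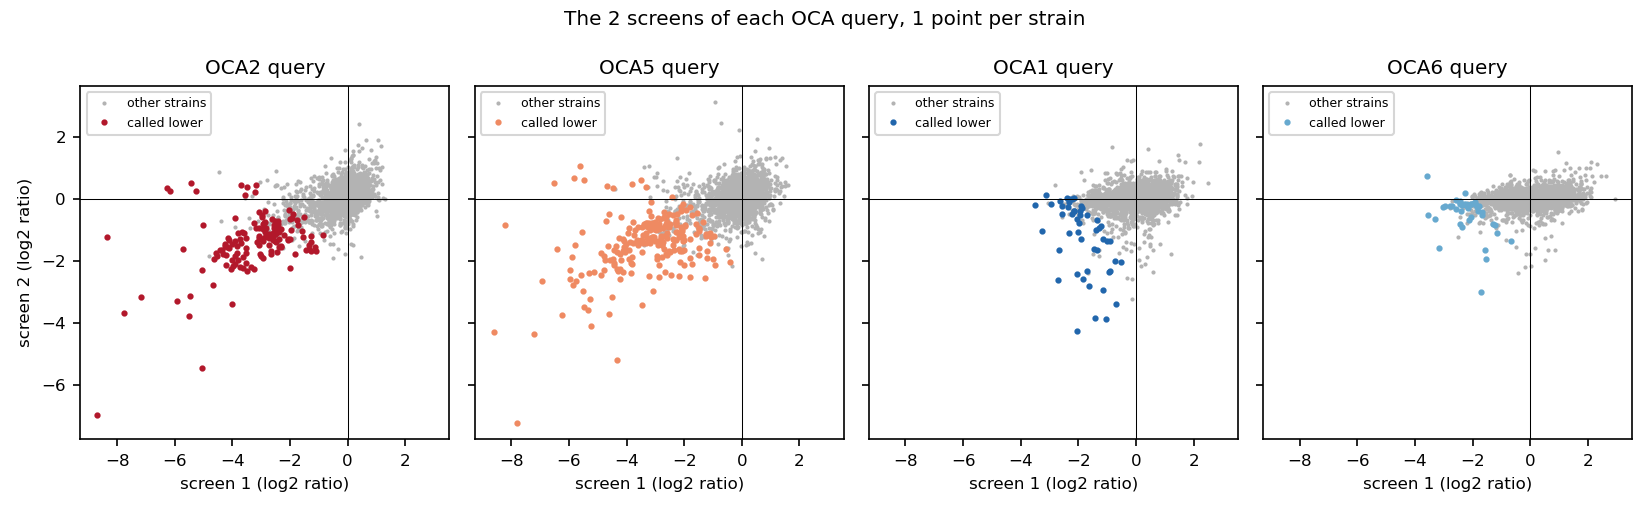
Log2 ratio of query over reference in screen 1 (x axis) and screen 2 (y axis) for every unlinked strain, 1 panel for each OCA query; coloured points are strains called lower and grey points are all others. Both screens lie at -1 or below in 102 of 142 lower calls for OCA2 and 148 of 224 for OCA5. For OCA1 they do so in 18 of 50 and for OCA6 in 5 of 42.

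Deletion of OCA2 or OCA5 lowered every strain of the OCA family that could be read in those queries. In the OCA2 query the OCA5 strain stood at -3.01 and -1.84 in the 2 screens, with a mean of -2.42 ± 0.82 (SD, n = 2; adjusted p = 6.9e-07 by limma). The OCA6 strain stood at -2.66 and -1.78 there (mean -2.22 ± 0.62; adjusted p = 1.6e-08), and the OCA4 strain at -2.45 and -1.70 (mean -2.08 ± 0.53; adjusted p = 1.8e-06). Both screens put all 3 strains far below 0, the first screen further than the second.

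In the OCA5 query the same was seen for 5 of 5 family strains. The OCA6 strain stood at -2.93 and -1.95 (mean -2.44 ± 0.69; adjusted p = 4.8e-10), the OCA4 strain at -2.61 and -1.82 (mean -2.22 ± 0.56; adjusted p = 2.9e-07), and the OCA2 strain at -2.64 and -1.77 (mean -2.21 ± 0.61; adjusted p = 1.5e-06). The OCA1 and OCA2 strains lay on a chromosome other than that of the OCA5 query, so linkage does not enter. The OCA1 strain stood at -2.48 and -1.70 (mean -2.09 ± 0.55; adjusted p = 6.1e-10). The SIW14 strain, which lacks the inositol pyrophosphate phosphatase, stood at -2.76 and -1.49 (mean -2.13 ± 0.90; adjusted p = 0.00021), and its call was lost without the first screen and with quantile normalization (-1.32; adjusted p = 0.067). With other queries in the same reference pools the medians of these 6 strains were between 0.2 and 0.6.

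The OCA1 and OCA6 deletions gave no such set. In the OCA1 query the OCA4 strain stood at -1.81 and 0.59, the OCA5 strain at -1.90 and 0.86, and the OCA6 strain at -1.07 and 0.84, so the screens fell on opposite sides of 0 and 0 of 3 were called. Without the second screen the OCA4 and OCA5 strains would be called lower. In the OCA6 query the OCA2 strain stood at -3.57 and 0.73 (mean -1.42 ± 3.04; adjusted p = 0.0056), and this call turned to 0.73 without the first screen. The OCA1 strain stood at -0.65 and 0.57 and the SIW14 strain at -1.93 and 0.10, and neither was called. The OCA4 and OCA5 strains were read in the second OCA6 screen alone, at 0.52 and 0.91. The test between the sides took only strains read in all 8 screens, which leaves out these strains, so their difference between the sides was not tested.

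The strain of LOS1, which encodes a nuclear exporter of tRNA, was among the lowest in OCA2 and OCA5 and was also lower in OCA1 and OCA6. It stood at -5.04 and -5.46 in the OCA2 screens, -4.32 and -5.18 in the OCA5 screens, -2.71 and -2.60 in the OCA1 screens, and -3.17 and -1.59 in the OCA6 screens. The means were -5.25 ± 0.30, -4.75 ± 0.61, -2.66 ± 0.08 and -2.38 ± 1.11 (SD, n = 2 each), with adjusted p = 3.3e-12, 2.8e-10, 0.0013 and 0.0055 by limma. All 8 screens were low, and the other queries of the 4 pools had medians between -0.2 and 0.3. The OCA1 and OCA6 calls were each lost without their first screen.

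Several of the lowest strains with OCA2 and OCA5 can be described by known roles, although they were picked for their values and form no tested group. The strain of BRP1, a reading frame upstream of the proton pump gene PMA1, stood at -8.69 and -6.97 with OCA2 (mean -7.83 ± 1.22; adjusted p = 5.7e-07) and at -7.80 and -7.23 with OCA5 (mean -7.51 ± 0.40; adjusted p = 1.8e-06). It had the lowest mean of the called strains in both queries. With the other queries of the first pool it had a median of -2.9 and with those of the second of 0.0, and it was not read in the OCA1 and OCA6 screens. The PMA1 strain itself stood at -4.66 and -2.79 with OCA2, -4.49 and -3.16 with OCA5, -2.67 and -1.65 with OCA1, and -2.52 and -1.22 with OCA6. It was called in the first 3 of these queries (adjusted p = 2.8e-06, 1.4e-06 and 0.021) and not in OCA6 (adjusted p = 0.062), and the OCA1 call was lost when either of its screens was left out.

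PTK2 encodes a kinase that activates Pma1 and SKY1 a kinase of the SR protein family, and both act on polyamine uptake. The SKY1 strain stood at -5.48 and -3.13 with OCA2, -5.47 and -3.50 with OCA5, -2.16 and -0.42 with OCA1, and -1.23 and 0.21 with OCA6. It was called with OCA2 and OCA5 (adjusted p = 1.6e-08 and 3.6e-09) and not with OCA1 or OCA6 (adjusted p = 0.28 and 0.85). The PTK2 strain stood at -5.05 and -2.29 with OCA2, and at -4.75 and -1.96 with OCA5, and was called in both (adjusted p = 1.3e-05 and 8.9e-05). With the screen number as a block, a setting given below, PTK2 differed by -2.24 between the sides. Its OCA1 and OCA6 mean was thus below 0 as well. With the reference pool as a block PTK2 was not called between the sides. AGP2, a plasma membrane protein that regulates polyamine and carnitine uptake, gave -5.51 and -3.77 with OCA2, -5.33 and -3.59 with OCA5, -1.44 and 0.42 with OCA1, and -2.01 and -0.46 with OCA6 (adjusted p = 9.6e-11, 5.1e-10, 0.83 and 0.28). In these 3 strains every OCA2 and OCA5 screen was at or below -1.96.

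Strains of single permeases and of the ubiquitin ligase system that acts on them were also among the called strains; they are examples and not a tested group. ITR1 is the main inositol transporter; its strain stood at -4.34 and -1.77 with OCA2 and -4.09 and -1.63 with OCA5 (adjusted p = 3.5e-07 and 2.2e-06), against -0.55 and 0.05 with OCA1 and -1.02 and -0.30 with OCA6. The strain of TAT1, an amino acid permease, stood at -3.74 and -2.20 with OCA2 and -3.93 and -1.94 with OCA5 (adjusted p = 0.00055 and 0.00066), against -0.68 and -0.61 with OCA1 and -0.63 and -0.46 with OCA6. LDB19, an adaptor that brings permeases to the ubiquitin ligase Rsp5, gave -4.01 and -1.96 with OCA2 and -4.32 and -2.25 with OCA5 (adjusted p = 4.9e-06 and 3.7e-07). With the screen number as a block LDB19 differed by -2.18 between the sides, so its OCA1 and OCA6 mean was also below 0. For ITR1 and TAT1 the OCA2 and OCA5 screens did not overlap those of OCA1 and OCA6, as in 423 of all 2880 strains read in the 8 screens (14.7%). With the reference pool as a block, a setting given below, none of ITR1, TAT1 and LDB19 was called between the sides. The RSP5 strain was lower with OCA2 (-2.37 and -1.29), OCA5 (-2.70 and -1.19) and OCA6 (-2.59 and -0.32), each call being lost without the first screen, and stood at -1.35 and -0.24 with OCA1 (adjusted p = 0.32).

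URE2, which holds back the genes for use of poor nitrogen sources, was one of the lowest strains of both queries. It stood at -5.91 and -3.29 with OCA2, -6.26 and -3.76 with OCA5, -1.47 and -1.12 with OCA1, and -2.18 and -0.78 with OCA6 (adjusted p = 3.6e-09, 1.3e-10, 0.31 and 0.2). The strain of PMR1, the calcium and manganese pump of the Golgi, stood at -7.16 and -3.17 with OCA2 (adjusted p = 6.9e-06, lost without the first screen) and -7.22 and -4.36 with OCA5 (adjusted p = 3.3e-07). That of HUR1, whose reading frame overlaps PMR1, stood at -7.75 and -3.67 with OCA2 and -8.61 and -4.28 with OCA5. Because the genes overlap, PMR1 and HUR1 are not separate evidence. Other queries of the first pool had medians of -1.6 and -1.7 for these 2 strains.

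The few strains that were higher with these queries moved little. MOT3, a transcriptional repressor, stood at 1.53 and 1.05 in the OCA5 screens (adjusted p = 0.0021, lost without the first screen) and at 1.07 and 0.54 in the OCA2 screens (adjusted p = 0.12). The TRM44 strain, which lacks a tRNA methyltransferase, stood at 1.38 and 1.31 with OCA5 (adjusted p = 0.022, lost when either screen was left out). MSC7 was called higher in OCA2, OCA1 and OCA6 with values between 1.03 and 1.45, but the other queries of the same pools had medians between 0.9 and 1.1, and it was not called once those medians were subtracted.

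**Figure D2:**
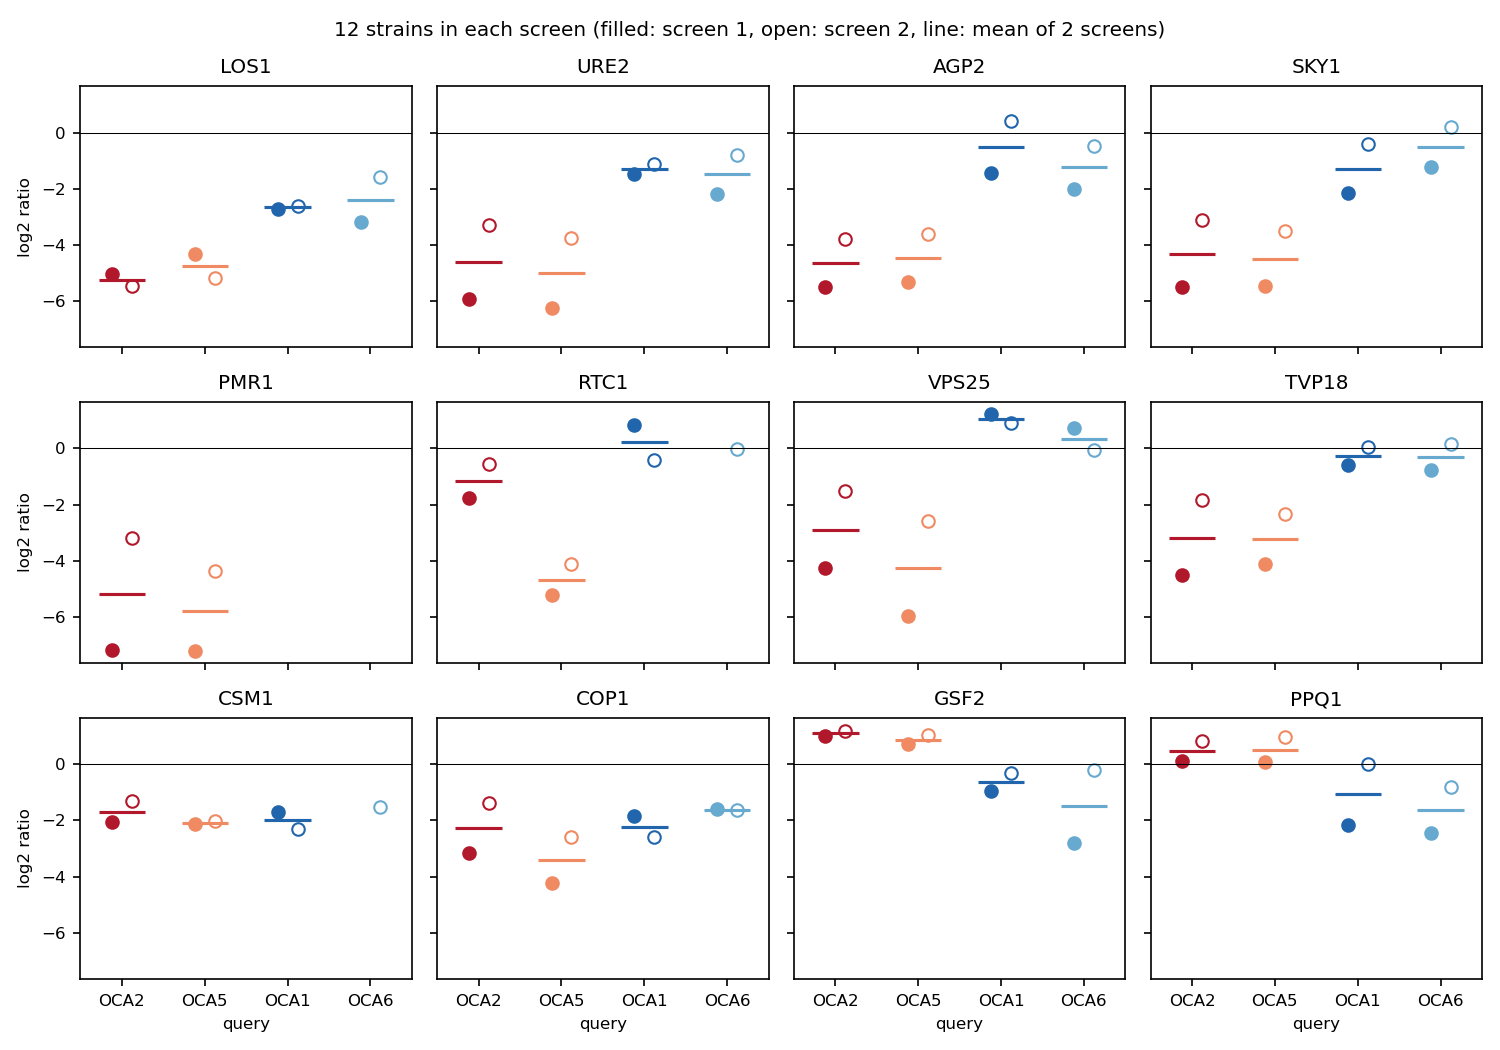
Log2 ratio (y axis) of 12 strains in the 4 OCA queries; filled points are screen 1, open points screen 2 and the line is their mean. LOS1, COP1 and CSM1 are low with every query that read them, URE2, AGP2, SKY1, TVP18 and VPS25 are low with OCA2 and OCA5, and RTC1 is lowest with OCA5.

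Among the gene lists used, sorting of membrane proteins into the vacuole had the most lower strains with OCA2 and OCA5. The lists were chosen with earlier results of these data known, so this order is a description and not a test. ESCRT complexes bud vesicles into the late endosome, and the retromer carries receptors back to the Golgi. Of this list, 16 of 21 tested strains were lower with OCA2, 19 of 20 with OCA5, 0 of 18 with OCA1 and 1 of 13 with OCA6, and none was higher. Under quantile normalization 13 of 21 were lower with OCA2 and 13 of 20 with OCA5. The list medians were -1.89, -2.51, -0.44 and -0.18, where the median of all strains was 0.01 in each query. The VPS25 strain, of ESCRT-II, stood at -4.27 and -1.52 with OCA2, -5.96 and -2.58 with OCA5, 1.23 and 0.89 with OCA1, and 0.73 and -0.05 with OCA6. The SNF7 strain, of ESCRT-III, stood at -4.23 and -2.12 with OCA2 and -5.28 and -3.23 with OCA5, and was not read in the OCA1 and OCA6 screens. The one OCA6 call was MVB12, with a mean of -1.32. When the mean of the 4 OCA queries was set against that of the other queries, 0 of 20 tested strains of the list were called. By the number of these strains lowered, OCA2 ranked 16 and OCA5 10 among 140 queries; the median query lowered 0 of them and the SEM1 query 22.

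Other groups showed part of the same division. The share of all tested strains that were lower was 3.72% with OCA2, 5.8% with OCA5, 1.31% with OCA1 and 1.32% with OCA6. Of the proteasome subunits and assembly factors, 7 of 33 were lower with OCA2, 13 of 32 with OCA5, 1 of 33 with OCA1 and 0 of 28 with OCA6, with list medians of -1.05, -1.13, -0.24 and 0.06. Under quantile normalization the proteasome counts with OCA2 and OCA5 were 2 of 33 and 5 of 32. The UBP6 strain, which lacks a deubiquitinase of the proteasome, stood at -2.67 and -1.69 with OCA2, -2.18 and -1.61 with OCA5, -3.49 and -0.19 with OCA1, and -0.83 and -0.12 with OCA6; it was called in the first 3 (adjusted p = 0.011, 0.038 and 0.047), each call being lost without the first screen. Of the Golgi and early endosome traffic genes, 4 of 17, 5 of 19, 1 of 14 and 0 of 9 were lower with OCA2, OCA5, OCA1 and OCA6, with medians of -1.03, -1.36, 0.34 and 0.00, and under quantile normalization 2 of 17 and 1 of 19 with OCA2 and OCA5; among them was ARL1, a small GTPase of the Golgi (means -1.70 with OCA2 and -2.27 with OCA5). For YPT6 of the Golgi list, not called with any OCA query, other queries of the OCA2 and OCA5 pools had medians of -2.08 and -2.24. Those of the OCA1 and OCA6 pools had -1.52 and 0.10. Counts between the sides with the reference pool as a block are given below. The 4 measured vacuolar ATPase strains were assembly factors, and PKR1, RAV1 and RAV2 were lower with OCA2 and with OCA5, whereas 0 of 3 were called lower with OCA1 and 0 of 2 with OCA6. The list medians were -1.99 with OCA2, -2.44 with OCA5, -0.58 with OCA1 and -1.19 with OCA6. Both strains tested with OCA6 were low (-1.31 and -1.08), so this group shows no clear division.

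Smaller groups gave a few members each, which are examples and not tested groups. Over all tested strains 3.72% were lower with OCA2, 5.8% with OCA5, 1.31% with OCA1 and 1.32% with OCA6. A count such as 1 of 17 with OCA2 is near that share. Of the nonsense-mediated decay genes, which destroy mRNAs with early stop codons, NMD2 was lower with OCA2 (1 of 5) and NAM7, NMD2 and UPF3 with OCA5 (3 of 5), and 0 of 5 with OCA1 and with OCA6. In the TORC1 group, NPR3, TIP41 and URE2 were lower with OCA2 (3 of 10), RTC1, TIP41 and URE2 with OCA5 (3 of 9) and NPR3 and TIP41 with OCA6 (2 of 7), with 0 of 11 in OCA1. The 3 TIP41 calls were each lost without the first screen. Of the oxidative stress genes, SOD1, the copper and zinc superoxide dismutase, and CCS1, its copper chaperone, were lower with OCA2 and OCA5 (2 of 17 each), and 0 of 16 with OCA1 and 0 of 12 with OCA6. The SOD1 strain stood at -5.01 and -0.83 with OCA2 and -5.53 and -1.07 with OCA5. The aromatic amino acid enzymes ARO1 and TRP2 and the permease TAT1 were lower with OCA2 (3 of 20) and with OCA5 (3 of 19). In the Rpd3 group, a histone deacetylase complex, CTI6 was lower with OCA2 (1 of 17) and SAP30, SDS3, PHO23, RXT2 and CTI6 with OCA5 (5 of 18).

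Against 0, the phosphate response, the cell wall integrity pathway and G1 control gave no calls in the 4 queries. At the share of all strains called, that is near the background for lists of this size. In the differences between queries, WSC2 of the cell wall list was called higher with OCA1 than with OCA6 (1 of 6 tested). BCK2 of the G1 list was called higher on the OCA2 and OCA5 side (1 of 7 tested). Of the phosphate signalling and polyphosphate genes, 0 of 15 were called with OCA2, 0 of 16 with OCA5, 0 of 15 with OCA1 and 0 of 10 with OCA6, and the list medians lay between 0.11 and 0.20. Of the cell wall integrity genes, 0 of 13, 0 of 12, 0 of 13 and 0 of 6 were called in the same order, and of the genes for G1 control 0 of 8, 0 of 8, 0 of 8 and 0 of 7. In limma's test an unadjusted p under 0.05 was reached over all strains by 434 in OCA2, 508 in OCA5, 490 in OCA1 and 638 in OCA6.

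**Figure D3:**
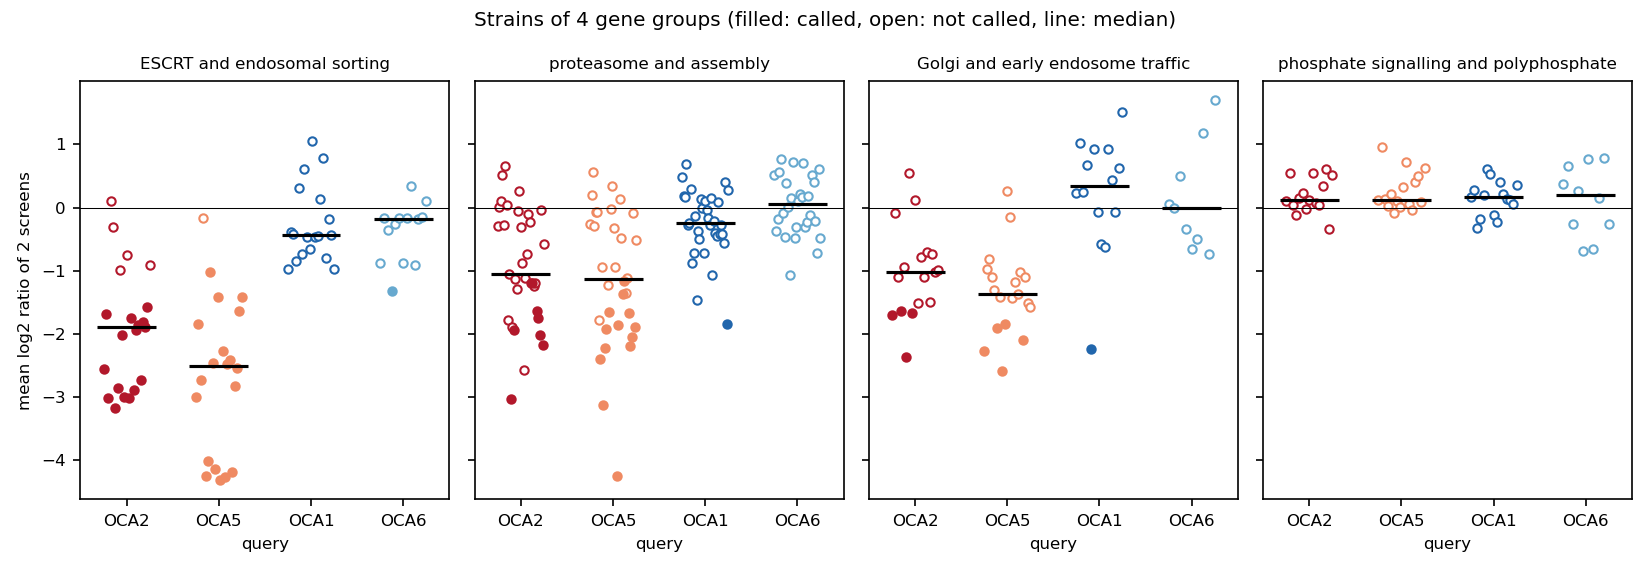
Mean log2 ratio (y axis) of each tested strain of 4 gene groups in the 4 OCA queries; filled points are called strains, open points are not called, and the line is the list median. The ESCRT group has a median of -1.89 with OCA2 and -2.51 with OCA5, against -0.44 with OCA1 and -0.18 with OCA6, while the phosphate group stays near 0 in all 4.

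Some strains were called with OCA1 or OCA6 and not with OCA2 or OCA5. DDP1 encodes a phosphatase of inositol pyrophosphates and polyphosphate; its strain stood at -1.40 and -1.0 with OCA1 (mean -1.20 ± 0.28; adjusted p = 0.00016) and at -0.28 and -0.99 with OCA6 (adjusted p = 0.13), against 0.40 and -0.04 with OCA2 and -0.17 and -0.11 with OCA5. It was lower in 1 of the 137 queries that tested it. The other strain read from the list of inositol pyrophosphate enzymes was not called with any OCA query. In the test between the sides 0 of the 2 strains of this list were called. The strain of PRS5, an enzyme that makes the phosphoribosyl donor of nucleotide synthesis, stood at -1.36 and -1.66 with OCA1 (mean -1.51 ± 0.21; adjusted p = 2.2e-06) and at -0.16 and -1.77 with OCA6, where its mean of -0.97 fell short of the size threshold (adjusted p = 0.0072). Both OCA1 screens were low for these 2 strains.

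On the list that holds the INO80 chromatin remodeller, some strains were called lower with OCA1 and others with OCA2 and OCA5. The IES4 strain stood at -2.0 and -1.06 (adjusted p = 3e-06), the IES1 strain at -1.93 and -0.53 (adjusted p = 0.014) and the NHP10 strain at -1.98 and -0.77 (adjusted p = 0.0035), which made 3 of the 11 tested SWR1, INO80 and NuA4 strains. The same list had 2 of 14 lower with OCA2 and 2 of 15 with OCA5, which were ARP8 and IES2, and 0 of 7 with OCA6. In the test between the sides 0 of its 6 tested strains were called. Of the high osmolarity pathway, SSK2, a kinase at its head, was lower with OCA1 (-1.20 and -0.88; adjusted p = 0.048) and OCA6 (-1.66 and -0.51; adjusted p = 0.037), and SSK1, which activates that kinase, with OCA6 (-1.69 and -0.42; adjusted p = 0.0074). That is 1 of 8 members with OCA1 and 2 of 7 with OCA6, against 0 of 8 with OCA2 and 0 of 9 with OCA5. Over all tested strains 1.31% were lower with OCA1 and 1.32% with OCA6. Of the 6 osmolarity strains in the test between the sides 1 was called, HOG1, which was higher on the OCA2 and OCA5 side.

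The PGA3 strain stood at -1.16 and -2.95 with OCA1 (adjusted p = 0.0011) and -1.55 and -1.95 with OCA6 (adjusted p = 0.0088), against 0.54 and 0.38 in the second OCA2 and OCA5 screens, the ones that read it. The OCA6 call was lost when either screen was left out. On the higher side, MGA2, which activates the fatty acid desaturase gene, stood at 2.22 and 1.78 with OCA1 (adjusted p = 0.023), against -1.05 and 0.23 with OCA2. TSR3, which modifies ribosomal RNA, stood at 2.17 and 1.18 with OCA1 and 2.32 and 1.11 with OCA6 (adjusted p = 0.026 and 0.021), against 0.42 and 0.59 with OCA2 and 0.23 and 0.11 with OCA5. The MGA2 and OCA1 TSR3 calls were lost when either screen was left out, and the OCA6 TSR3 call without the first. The strains of SMT3, the SUMO gene, and of CDC12, a septin, were higher with OCA6, at 2.06 and 0.99 (adjusted p = 0.0059) and at 1.92 and 1.00 (adjusted p = 0.029), and the CDC12 call was lost when either screen was left out.

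Of the strains tested in both queries, 12 were lower with OCA2 and OCA1, which is 11.0% of the OCA2 calls and 27.9% of the OCA1 calls. OCA5 and OCA1 had 16 in common (9.64% and 34.8%), OCA2 and OCA6 7 (9.33% and 18.4%) and OCA5 and OCA6 10 (7.81% and 25.0%). Queries of one side share their reference pools, and no overlap is given for them.

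The mean of OCA2 and OCA5 was then set against the mean of OCA1 and OCA6 in the 2880 strains read in all 8 screens. In limma's test 72 strains were lower on the OCA2 and OCA5 side (2.5%) and 33 were higher (1.15%), or 66 and 56 when the arrays were not centred and 40 and 72 under quantile normalization. Which direction held more calls thus depends on the scaling. In 60 of the 72 the OCA2 and OCA5 mean was itself at -1 or below, and in 10 of the 33 the OCA1 and OCA6 mean was, while in 0 of the 33 did the OCA2 and OCA5 mean reach 1. The 4 screens of one side did not overlap the 4 of the other in 50 of the 72 and 25 of the 33, against 423 of all 2880 strains (14.7%).

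The difference was -4.28 ± 0.68 (SE) for VPS25 (adjusted p = 2.7e-06), -3.68 ± 0.58 for AGP2 (adjusted p = 2.7e-06) and -3.42 ± 0.63 for URE2 (adjusted p = 6.8e-05). It was -3.49 ± 0.61 for SKY1 (adjusted p = 3e-05) and -3.59 ± 0.64 for VPS21, the endosomal Rab GTPase (adjusted p = 4.4e-05). VAM7, a vacuolar fusion protein, differed by -3.40 ± 0.76 (adjusted p = 0.0012). The VPS21 strain stood at -3.07 and -1.28 with OCA2 and -3.85 and -2.05 with OCA5, against 1.41 and 0.40 with OCA1 and 1.75 and 0.56 with OCA6. LOS1, low in all 8 screens, was lower still on the OCA2 and OCA5 side, by -2.48 ± 0.61 (adjusted p = 0.0039). Of the ESCRT list 7 of the 10 strains read in all 8 screens were lower on the OCA2 and OCA5 side, of the Golgi list 4 of 8 and of the proteasome list 4 of 23. With the reference pool as a block these counts were 0 of 10, 0 of 8 and 0 of 23, and under quantile normalization 2 of 10, 5 of 8 and 0 of 23.

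The 6 strains with the highest difference each had an OCA1 and OCA6 mean below 0. GSF2, which helps hexose transporters leave the endoplasmic reticulum, stood at 1.01 and 1.17 with OCA2 and 0.71 and 1.03 with OCA5, against -0.95 and -0.31 with OCA1 and -2.79 and -0.22 with OCA6, a difference of 2.05 ± 0.36 (adjusted p = 3e-05). PPQ1, a protein phosphatase, stood at 0.11 and 0.82 with OCA2 and 0.08 and 0.96 with OCA5, against -2.15 and 0.01 with OCA1 and -2.44 and -0.80 with OCA6, a difference of 1.84 ± 0.29 (adjusted p = 2.7e-06). CHD1, a chromatin remodeller, differed by 1.98 ± 0.54 (adjusted p = 0.012), SUR7, of the eisosome membrane domain, by 1.65 ± 0.34 (adjusted p = 0.00041), YLR257W by 1.64 ± 0.30 (adjusted p = 6.8e-05) and SXM1, a nuclear import receptor, by 1.58 ± 0.40 (adjusted p = 0.0057). In GSF2 and PPQ1 the low values came mainly from the first OCA1 and OCA6 screens. The calls of CHD1, SUR7 and SXM1 were lost without either of those first screens, and that of CHD1 also without the first OCA5 screen.

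With the reference pool as a block, which uses the other queries of the same pools, all 105 strains kept their sign, but 11 were lower and 23 higher, of which 8 and 12 were calls without the block. AGP2 (-2.92; adjusted p = 0.045), SKY1 (-2.86; adjusted p = 0.045), URE2 (-3.44; adjusted p = 0.031), GSF2 (2.73; adjusted p = 0.00025), PPQ1 (1.76; adjusted p = 0.031) and YLR257W (1.82; adjusted p = 0.045) were still called. VPS25 (-3.45; adjusted p = 0.071), VPS21 (-2.48; adjusted p = 0.18), VAM7 (-2.33; adjusted p = 0.36), LOS1 (-1.03; adjusted p = 0.64), SUR7 (1.60; adjusted p = 0.13), CHD1 (1.55; adjusted p = 0.39) and SXM1 (1.02; adjusted p = 0.55) were not.

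**Figure D4:**
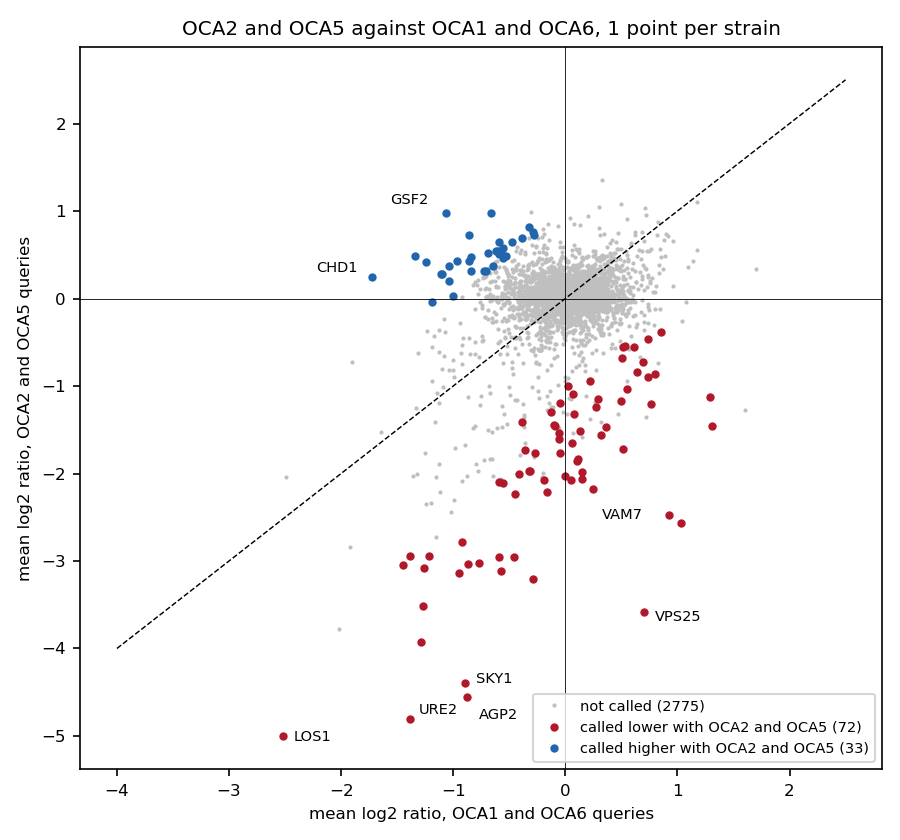
Mean log2 ratio over the 4 OCA2 and OCA5 screens (y axis) and over the 4 OCA1 and OCA6 screens (x axis) for the 2880 strains read in all 8; coloured points are the 72 strains lower and the 33 higher on the OCA2 and OCA5 side, and the dashed line marks equal values. Most strains lie near 0 on both axes, and the lower ones spread down the y axis.

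Within a side few strains passed the test of a difference. RTC1, a subunit of the SEA complex that acts on TORC1, was the single strain called between OCA2 and OCA5 (0.027% of 3704, with 0 lower and 25 strains at an unadjusted p under 0.05). It stood at -1.75 and -0.57 with OCA2 and at -5.22 and -4.11 with OCA5, a difference of 3.51 ± 0.69 (SE; adjusted p = 0.004). The call was lost without the second OCA2 screen (2.92) or the first OCA5 screen (2.95). With the screen number as a block, which pairs screens of the same pool, RTC1 remained (adjusted p = 0.0012) and GIS2, a translation factor, and SDS3, of the Rpd3 complex, were also called, at 2.46 and 2.11, and 361 strains had an unadjusted p under 0.05. The GIS2 strain stood at -0.28 and 1.20 with OCA2 and at -2.36 and -1.65 with OCA5, and the SDS3 strain at -3.58 and 0.03 with OCA2 and at -5.89 and -1.87 with OCA5.

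Between OCA1 and OCA6, 5 strains were lower with OCA1 (0.164% of 3058) and 2 were higher (0.0654%). PNG1, which removes sugar chains from misfolded proteins, stood at -1.11 and -0.08 with OCA1 and 1.97 and 0.17 with OCA6, a difference of -1.66. AIM36 differed by -1.57, THI4, an enzyme of thiamine synthesis, by -1.39, MTW1, of the kinetochore, by -1.34 and MLH2, of mismatch repair, by -1.31. WSC2, a cell wall sensor, differed by 1.29 and PRO3, of proline synthesis, by 1.05. These differences came from the first screens: in the second, the values of these strains lay between -0.48 and 0.17, and each call was lost without the first screen of either query. With the screen number as a block 7 strains were called again, but only AIM36 and PNG1 were among the first 7.

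COP1, LOS1 and ULS1 were lower with all 4 deletions. COP1 encodes a subunit of the coat of Golgi vesicles, and its strain stood at -3.16 and -1.39 with OCA2, -4.21 and -2.59 with OCA5, -1.84 and -2.60 with OCA1, and -1.58 and -1.65 with OCA6 (adjusted p = 5.3e-06, 3.3e-12, 9.6e-06 and 0.003). Every screen was below -1, against pool medians between 0.2 and 1.0. ULS1, a translocase that acts on SUMO-bound proteins, had means of -1.24, -1.14, -1.12 and -1.13, and each of those calls was lost when either screen was left out. Of the COP1 calls, OCA2 was lost without the first screen and OCA6 when either was left out. CSM1 and LRS4 form monopolin, which holds sister kinetochores together in meiosis and acts at ribosomal DNA. CSM1 stood at -2.06 and -1.31 with OCA2, -2.14 and -2.03 with OCA5, -1.69 and -2.32 with OCA1, and -1.52 in the second OCA6 screen. LRS4 stood at -3.23 and -2.25 with OCA2, -2.45 and -2.45 with OCA5, and in the second screens alone at -2.87 with OCA1 and -1.23 with OCA6. Every screen that read either monopolin strain was below -1.

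The mean over the 4 OCA queries was also set against the mean over the other queries, each query counting once. Of 4001 strains, 12 were lower (0.3%) and 1 was higher (0.025%) by limma, with a difference of at least 0.5. OCA2 and OCA5 share their pools, as do OCA1 and OCA6, so the 4 query means are not independent. The adjusted p-values below may therefore be too small. A query mean could also rest on 1 screen, as for LRS4 with OCA1 and OCA6 and for CSM1 with OCA6. LOS1 averaged -3.76 over the OCA queries and -0.16 over the others (adjusted p = 8e-06), LRS4 -2.32 and 0.08 (adjusted p = 8e-06), CSM1 -1.82 and 0.01 (adjusted p = 6.3e-05), and COP1 -2.38 and -0.11 (adjusted p = 0.026). DDP1 averaged -0.45 over the OCA queries and 0.17 over the others (adjusted p = 0.018) and PRS5 -0.80 and 0.10 (adjusted p = 0.01), although with OCA2 neither was called. The higher strain was SSO2, a plasma membrane fusion protein, at 0.73 over the OCA queries and -0.10 over the others (adjusted p = 0.028), a call lost without the first OCA1 or OCA6 screen. The COP1 call was lost without the first OCA2 or OCA5 screen.

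Some strains were low in both first screens of OCA2 and OCA5 and not in the second. Chosen after their values were seen, and so with no test, 18 strains lay at -2 or below in both first screens and above 0 in both second screens. GGA1, an adaptor of Golgi to endosome transport, stood at -4.46 and 0.87 with OCA2, -5.62 and 1.05 with OCA5, -1.41 and -3.84 with OCA1, and -1.70 and -3.01 with OCA6. RKM3, which methylates a ribosomal protein, stood at -5.43 and 0.52 with OCA2, -5.84 and 0.68 with OCA5, -1.03 and -3.88 with OCA1, and -2.78 in the second OCA6 screen. In the second OCA1 screen 16 of the 18 were below 0, and in the second OCA6 screen 15 of 17. With the other queries of the first OCA2 and OCA5 pool, the median of these strains was 0.588 (range -2.085 to 1.19). Screens of OCA2 and OCA5 with the same number share a pool, and what the split follows was not tested.

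The OCA strains were also read as pool members in the other queries. With the 4 OCA queries left out, the OCA2 strain was lower in 10 of 132 tested queries, the OCA5 strain in 12 of 132, the OCA1 strain in 8 of 133 and the OCA6 strain in 10 of 128, and they were higher in 3, 7, 3 and 6. For comparison, 2.37% of all strain and query pairs of the series were lower and 1.24% higher. All 6 family strains, SIW14 and OCA4 included, were lower in the queries of UBP6 (-4.03 to -2.41), NAM7 (-3.0 to -1.77), RPL12B, a gene for a ribosomal protein (-3.27 to -1.47), ADE4, which encodes the first enzyme of purine synthesis (-2.64 to -1.46), and NMD2 (-2.45 to -1.74). In the query of PTC1, a type 2C protein phosphatase, the 5 tested family strains were higher (2.37 to 3.08). In the query of RAT1, a nuclear exonuclease, 5 of 6 were higher and the OCA5 strain was not.

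**Figure D5:**
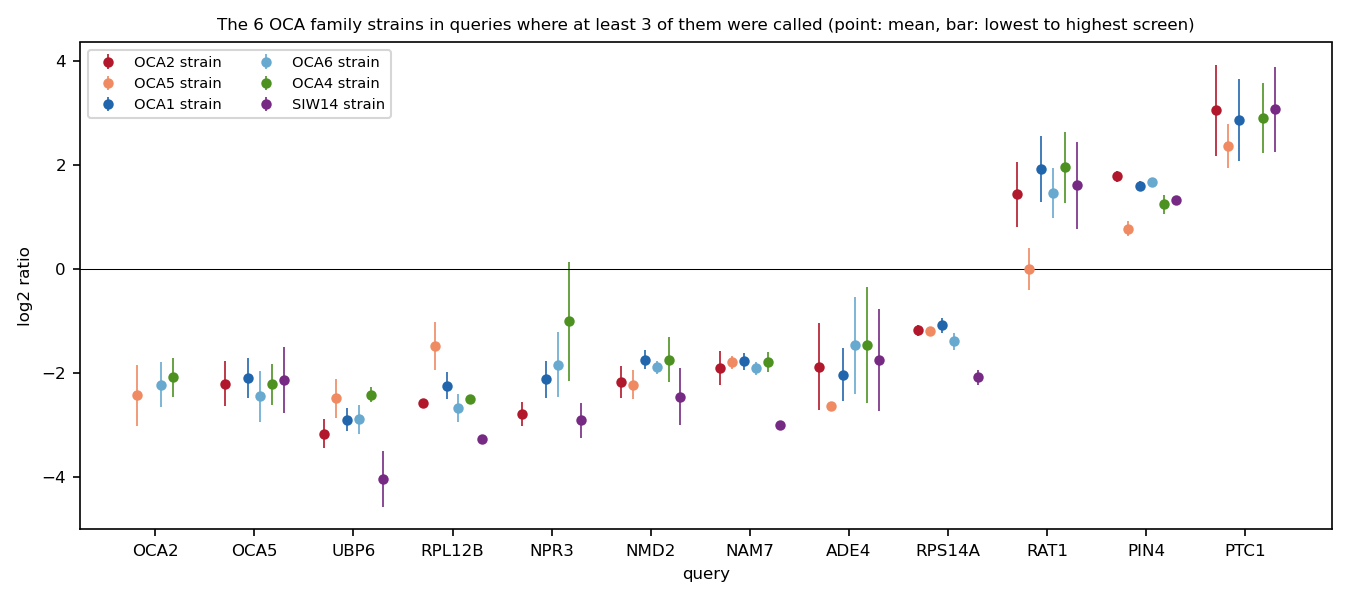
Mean log2 ratio (y axis) of the 6 OCA family strains in the 12 queries that called at least 3 of them, with bars from the lowest to the highest screen. The 6 strains lie below 0 with UBP6, RPL12B, NAM7, NMD2 and ADE4, and the 5 strains tested with PTC1 lie above 0.

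The OCA5 strain followed the others less closely. Over the other queries, the OCA1 and OCA2 strains correlated with r = 0.936 (n = 132 queries), whereas the OCA5 strain correlated with each of the other 5 at 0.534 to 0.745. The queries share pools and arrays, so these are descriptions. The OCA5 strain alone of the family was called lower in the queries of GET3 (-2.27), CAJ1 (-2.14), IRS4 (-1.87) and MAK3 (-1.87), where the other strains ranged from -0.30 to 0.62 with GET3, -1.21 to -0.19 with CAJ1, -1.16 to -0.22 with IRS4 and -0.43 to 0.34 with MAK3. The lowest of these with CAJ1 and IRS4 was the SIW14 strain. That difference between strains was not tested. Outside the family, the strains closest to the mean of the 6 were those of SUR2, a sphingolipid hydroxylase (r = 0.745, n = 132 queries), SAP185, a partner of the phosphatase Sit4 (0.738), TDH3, a glycolytic enzyme (0.721), HRK1, a kinase that acts on Pma1 (0.708), EMP70 (0.678) and PMA1 (0.675).

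Crosses read in both directions gave values that were related in part. For OCA2, 96 crosses were read with OCA2 as the query and as the pool strain; 11 were lower as strains in the OCA2 query, 7 as the OCA2 strain in the other query and 5 in both. For OCA5 the counts were 16, 10 and 5 of 94, for OCA1 3, 7 and 1 of 91, and for OCA6 2, 6 and 2 of 72, and 0 crosses were called in opposite directions. The values of the 2 directions correlated across crosses with r = 0.616 for OCA2, 0.515 for OCA5, 0.316 for OCA1 and 0.341 for OCA6. The UBP6 strain had a mean of -2.18 in the OCA2 query, and the OCA2 strain one of -3.16 in the UBP6 query. With NMD2 the means were -1.93 and -2.18 for OCA2 and -2.13 and -2.22 for OCA5, the OCA query being named first in each pair. Other crosses of OCA2 and OCA5 differed by direction. With TEF4 the means, in the same order, were -2.87 and -0.09 for OCA2 and -3.05 and 0.06 for OCA5. With GET3 they were 0.26 and -2.27 for OCA5. For OCA1 and OCA6 the 2 directions correlated less. The NMD2 strain stood at -0.18 in the OCA1 query and 0.17 in the OCA6 query. The OCA1 and OCA6 strains stood at -1.74 and -1.88 in the NMD2 query.

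Whole profiles were compared only between screens of different reference pools. The 2 screens of one query correlated with r = 0.641 for OCA2, 0.632 for OCA5, 0.231 for OCA1 and 0.284 for OCA6. OCA2 with OCA5 gave a mean r of 0.607 over 2 such pairs, OCA1 with OCA6 0.216 over 2 pairs and the sides with each other 0.195 over 16 pairs, from 0.086 to 0.364. The highest of these were between the first OCA2 and OCA5 screens and the second OCA1 and OCA6 screens. Among the other 150 queries, those most like OCA2 and OCA5 were UBP6 (0.635), NPR3 (0.625), RPN4 (0.580), SEM1 (0.562), MAK3 (0.549) and NAM7 (0.541), against a median of 0.057. The queries most like OCA1 and OCA6 were ADE4 (0.213), CAJ1 (0.206), FKS1 (0.191), RPL12B (0.185), RPN4 (0.176) and EPS1 (0.175), against a median of 0.041, and these are about as high as the likeness of the 2 screens of OCA1.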

How the data were processed

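Barcodes of a pooled mutant collection were measured on 312 dual-colour Agilent arrays, per the labels' protocols, which label query barcodes with Cy3 and reference barcodes with Cy5. The authors deposited 1 processed value per feature, treated here as a log2 ratio of query over reference. The log base, the normalization before deposit and the image software were not given in the sources used here. Ratios hold no depth; precision is limited by the number of arrays.

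Of 15744 features, 13084 had 1 gene symbol and 2660 none; 5098 of 5100 symbols matched the RefSeq R64 table, which served for names and gene order only. The 8632 features with a value on 80% or more of the arrays were averaged into 4125 strains, arrays were centred on their median, and 17 arrays, 0 of them OCA arrays, were turned in sign because linked strains were positive. Strains within 100 genes of a query were left out of its tests. A limma 3.58.1 (R 4.3.3) fit with 1 mean per query over 304 screens gave moderated tests with Benjamini-Hochberg adjustment, over all pairs for queries against 0 and over tested strains for differences. Calls needed an adjusted p under 0.05 and a size of at least 1 (0.5 for the OCA queries against the others). Tables and figures used Python 3.11.15, pandas 2.3.3, NumPy 2.4.6 and Matplotlib 3.10.9. On simulated OCA2 data over 3813 strains, 87.9% of 116 changes of size 2 and 98.8% of 84 of size 3 were recovered, with 0 false calls. The simulated noise was independent between screens and of equal spread in all screens of a strain. Shared pools and wider first screens were not simulated, so false calls from them cannot be judged.

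The arrays were taken by title alone, although earlier results of these data were known when the members and gene lists were chosen. Named strains were, per query, the 8 lower and 4 higher of largest mean among calls with both screens at least 1 from 0, the 6 of largest size each way in each difference, strains called alike in at least 3 of the queries, all OCA family strains with HCR1, and called members of the lists, from which examples are given; other strains are named as such. HCR1, an initiation factor gene, was lower with OCA5 (-4.13 and -1.30; adjusted p = 0.0032 by limma) and not called with OCA2 (-3.09 and -0.70).

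Screen numbers pair samples within a side, since the labels give screens of the same number the same reference pool. Deviations of the screens from their query's mean correlated at 0.869 between OCA2 and OCA5 (3704 strains) and at 0.395 between OCA1 and OCA6 (3058 strains), but at 0.018 to 0.086 across sides, which share only a number. The alternatives were the values as deposited, no centring, quantile normalization, the median over features, no filter on features, the pool median of other queries subtracted, the pool or the screen number as a block, a fit of the 8 arrays alone, and each screen left out.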

Additional observations from a re-analysis of the deposited data

Results flagged for a closer look

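The difference between the OCA2 and OCA5 side and the OCA1 and OCA6 side was itself tested with limma, and 12 strains stood out in it. On the lower side these were VPS25 (-4.28), AGP2 (-3.68), VPS21 (-3.59), SKY1 (-3.49), URE2 (-3.42) and VAM7 (-3.40). On the higher side they were GSF2 (2.05), CHD1 (1.98), PPQ1 (1.84), SUR7 (1.65), YLR257W (1.64) and SXM1 (1.58). The sides used different reference pools, and the values with the pool as a block are given beside the comparison.

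RTC1 differed between OCA2 and OCA5 by 3.51 in a direct test of that difference. Between OCA1 and OCA6 the direct test picked PNG1 (-1.66), AIM36 (-1.57), THI4 (-1.39), MTW1 (-1.34), MLH2 (-1.31), WSC2 (1.29) and PRO3 (1.05), all of which rest on the first screens.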

How the results depend on the processing

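Totals of calls are given as lower and higher. With the reference pool median subtracted, calls were 231 (209 and 22) for OCA2, 171 (114 and 57) between the sides, 2 for OCA2 minus OCA5, 15 (8 and 7) for OCA1 minus OCA6 and 25 (23 and 2) for the OCA queries against the others. Quantile normalization gave 135 (81 and 54) for OCA2, 133 (88 and 45) for OCA5, 106 (76 and 30) for OCA1, 96 (66 and 30) for OCA6, 112 (40 and 72) between the sides, 7 (3 and 4) for OCA2 minus OCA5 and 26 (20 and 6) for the OCA queries against the others. Without centring the sides gave 122 (66 and 56). With the pool as a block, calls were 34 (11 and 23) between the sides, 6 (2 and 4) for OCA2 minus OCA5 and 26 (14 and 12) for OCA1 minus OCA6. With the replicate block they were 64 (54 and 10), 3 (0 and 3) and 7 (4 and 3); across the sides the screens share only a number. The values as deposited gave 0 for OCA2 minus OCA5 (22 at an unadjusted p under 0.05). The fit of the 8 OCA arrays alone gave 0 calls in limma for OCA2, OCA5, OCA1, OCA6, the sides, OCA2 minus OCA5 and OCA1 minus OCA6, with 360, 453, 228, 277, 324, 12 and 48 strains at an unadjusted p under 0.05; it has fewer samples. Leaving out each screen gave 37 to 172 calls for OCA2, 46 to 248 for OCA5, 26 to 206 for OCA1, 9 to 352 for OCA6, 63 to 212 between the sides, 1 to 7 for OCA2 minus OCA5, 0 to 153 for OCA1 minus OCA6 (the 0 without the first OCA6 screen, with 54 at an unadjusted p under 0.05) and 9 to 42 for the OCA queries against the others. Without the first screen the sign turned positive, so that leaving out each screen gave -3.17 to 0.44 in OCA2 and -3.50 to 0.60 in OCA5 for ACF2, -5.62 to 1.05 in OCA5 for GGA1, -5.43 to 0.52 in OCA2 and -5.84 to 0.68 in OCA5 for RKM3, -5.27 to 0.25 in OCA2 and -5.48 to 0.61 in OCA5 for RTN1, and -3.57 to 0.73 in OCA6 for the OCA2 strain. The cause of these shifts was not tested. Of 135 named values, 126 kept direction and call as deposited, 130 without centring, 135 with the median over features, 131 without the filter, 106 with quantile normalization and 114 with the pool median subtracted; in the fit of the 8 arrays alone 14 of 128 did. When 1 screen was left out, from 46.7% (without the first OCA6 screen) to 87.5% (without the second OCA2 screen) of the values concerned did.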
